A study of Mus musculus with 16 samples.

Results

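The 10 selenoprotein genes Gpx1, Gpx4, Selenow, Selenop, Selenok, Selenos, Selenot, Selenom, Txnrd1 and Txnrd2 were followed in the brain of mice without Upf3b, which encodes a factor of NMD (nonsense-mediated RNA decay). They were chosen by name, because an in-frame UGA codon in their messages can be read as a stop. No measured value entered the rule, but earlier results of these data were known when they were chosen. They made up 10 of the 55266 genes and 56 of the 142435 transcripts in the data. RNA-seq was performed on frontal cortex (FC) and cerebellum (Cere) of adult Upf3b-KO mice, which are null for Upf3b in all cells, and of littermate Ctrl mice. The libraries formed the groups Ctrl_FC, Upf3b-KO_FC, Ctrl_Cere and Upf3b-KO_Cere, with 4 in each. The labels name no other allele and no treatment, the study describes 4 mice per genotype, and no label ties a library to an animal. Age beyond "adult", sex and strain are not given in the sources used here. Upf3b-KO_Cere library 1 held only 64981 counts and was left out, so n is 3 in that group and 4 in the others.

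Selenocysteine is inserted where a ribosome meets a UGA codon in a message that also carries a SECIS element, a stem-loop that recruits the binding protein SBP2 and a dedicated elongation factor with its tRNA. When insertion fails, the UGA acts as a stop codon, and a stop well upstream of the last exon junction is the classic trigger of NMD, in which UPF3B links the exon junction complex to UPF2. The level of some selenoprotein messages depends on selenium supply, with Gpx1 the best known case, and in brain the secreted protein encoded by Selenop carries selenium to neurons.

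The UGA codons are shown because their place relative to the last exon junction divides the members. Each line gives the main transcript (the highest mean level over the 15 deep libraries), the GRCm39 position of the UGA, its exon and strand in the GENCODE vM39 annotation, and the spliced message from 12 bases before to 12 bases after the codon, with the UGA in capitals and written as TGA. For Selenop only the first of its UGA codons is shown.
Gpx1-201, chr9:108216650-108216652, exon 1 of 2, plus strand: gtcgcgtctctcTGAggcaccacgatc
Gpx4-207, chr10:79890571-79890573, exon 2 of 6, plus strand: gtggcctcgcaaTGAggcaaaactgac
Selenow-201, chr7:15654389-15654391, exon 2 of 6, minus strand: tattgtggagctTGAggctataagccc
Selenop-201, chr15:3304330-3304332, exon 2 of 5, plus strand: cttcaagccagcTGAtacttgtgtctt
Selenot-201, chr3:58492659-58492661, exon 2 of 6, plus strand: atttgtgtatccTGAgggtaccggcgg
Selenom-201, chr11:3466273-3466275, exon 2 of 5, plus strand: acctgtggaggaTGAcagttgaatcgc
Txnrd2-203, chr16:18296522-18296524, exon 17 of 18, plus strand: gtgactggttgcTGAggctaagtcacc
Selenok-201, chr14:29695397-29695399, exon 4 of 5, plus strand: atggctggtggaTGAggaaggtaaatg
Selenos-201, chr7:65738592-65738594, exon 6 of 6, plus strand: tcatctggcggcTGAaactaagactct
Txnrd1-201, chr10:82731871-82731873, exon 14 of 14, plus strand: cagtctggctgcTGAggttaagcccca

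In 7 members the UGA ended 50 nt or more before the last exon junction, the distance at which a stop codon counts as having a downstream exon junction (dEJ). The distance was 470 nt in Selenot, 357 nt in Selenop, 342 nt in Gpx4, 243 nt in Selenow, 135 nt in Selenom, 105 nt in Gpx1 and 83 nt in Txnrd2. In the other 3 members the UGA was nearer or in the last exon: 5 nt before the junction in Selenok, 63 nt past it in Txnrd1 and 80 nt past it in Selenos. The codon also stood at different places in the reading frame. In Selenok, Selenos, Txnrd1 and Txnrd2 it ended 6 to 9 nt before the end of the annotated stop codon, so that almost the whole protein is made before it is met. In the other members 228 to 966 nt followed, counted to the end of the stop codon. Selenop was the only member with several UGA codons, 10 in Selenop-201, of which all but the first lay in the last exon.

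The 15 deep libraries held 27660078 to 35238677 counts, and 3 counts correspond to 0.0851 to 0.108 CPM (counts-per-million, relative to the library total). Upf3b fell by 4.79 ± 0.16 on the log2 scale (SE) in frontal cortex and fell by 4.97 ± 0.13 in cerebellum (edgeR quasi-likelihood test, adjusted p = 4.8e-16 and 7.7e-17), which matches the genotype labels. The markers of the labelled tissues were in place: 4 granule cell markers together reached 3513 to 3535 CPM in Ctrl_Cere against 33.1 to 38.4 in Ctrl_FC, and 4 markers of cortical excitatory neurons reached 1478 to 1537 CPM in Ctrl_FC against 460 to 482 in Ctrl_Cere. Libraries of 1 group were close to each other. Over all 21 pairs of deep libraries within groups, gene counts differed by 2.71 to 3.66 times the counting noise (chi-square per degree of freedom), and no pair fell within it. The p-values below measure the spread between these libraries, and where the libraries of a group did not come from separate animals that spread is technical.

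In Ctrl mice the members covered a wide range of levels. On the length-corrected scale of transcripts-per-million (TPM), Selenow was the most abundant in both tissues, at 2073 ± 36.5 TPM in Ctrl_FC and 1494 ± 21.3 TPM in Ctrl_Cere (SD, n = 4 each), followed by Gpx4 at 602 ± 8.81 and 533 ± 17.7 TPM. Txnrd2 was the lowest, at 22.9 ± 1.42 TPM in Ctrl_FC and 21.2 ± 1.41 TPM in Ctrl_Cere. In Ctrl_FC the order from high to low was Selenow, Gpx4, Selenok, Gpx1, Selenop, Selenom, Selenos, Selenot, Txnrd1 and Txnrd2, and of these neighbours Selenom and Selenos overlapped between libraries. In Ctrl_Cere, Selenom and Selenos stood higher in the order, at ranks 3 and 5, and Selenok overlapped with Selenos.

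Between the tissues of Ctrl mice, 4 members were higher in cerebellum and 5 lower, while 37.8% of all tested genes were higher and 38.7% lower at the same threshold (adjusted p under 0.05, edgeR). The differences of Selenom and Selenos, both proteins of the endoplasmic reticulum (ER), were over 2-fold. Selenom held 51.0 to 52.8 CPM in the Ctrl_FC libraries and 165 to 178 CPM in Ctrl_Cere, a log2 difference of 1.68 ± 0.03 (SE, adjusted p = 5.6e-22). Selenos held 59.7 to 67.3 CPM in Ctrl_FC and 140.0 to 143 CPM in Ctrl_Cere, a log2 difference of 1.11 ± 0.03 (adjusted p = 1e-17). Selenot and Txnrd1 were higher in cerebellum by 0.20 and 0.19 on the log2 scale. Lower in cerebellum were Selenow with a log2 difference of -0.59, Selenop with -0.36, Gpx4 with -0.30, Gpx1 with -0.20 and Selenok with -0.20, and Txnrd2 did not pass (log2 difference -0.12 ± 0.08, adjusted p = 0.19).

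Between Upf3b-KO and Ctrl mice the members showed modest changes in both directions. In frontal cortex Gpx1, Gpx4, Selenow, Txnrd1 and Txnrd2 rose, Selenop, Selenok and Selenot fell, and Selenos and Selenom did not pass. In cerebellum Gpx1, Gpx4, Selenop, Txnrd1 and Txnrd2 rose, Selenow, Selenos, Selenot and Selenom fell, and Selenok did not pass. Thus 4 members rose in both tissues, 1 fell in both, 2 (Selenow and Selenop) passed in opposite directions and 3 passed in 1 tissue only. These counts stand against a large background of change. In frontal cortex 5 of 10 members rose where 28.0% of all tested genes did, and 3 fell where 25.3% did. In cerebellum 5 rose against 33.1% and 4 fell against 31.3%. The median log2 fold change of the members was 0.11 in each tissue, and that of all tested genes was 0.00 in frontal cortex and 0.01 in cerebellum. At the study's own, stricter threshold, which asks for more than a 2-fold change and for an adjusted p below 0.01, 0 members were called in either tissue, against 10.2% of genes in frontal cortex and 13.2% in cerebellum.

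Markers of cell types moved with the genotype in both tissues. All 9 choroid plexus markers rose in both tissues, and their summed level was 21.5 to 22.9 CPM in Ctrl_FC against 2218 to 2274 CPM in Upf3b-KO_FC, and 33.9 to 37.6 CPM in Ctrl_Cere against 1409.5 to 1433 CPM in Upf3b-KO_Cere. All 6 oligodendrocyte markers rose in both tissues, with sums of 7556 to 7641 CPM in Ctrl_FC, 10222 to 10296 CPM in Upf3b-KO_FC, 6208 to 6328 CPM in Ctrl_Cere and 14389.9 to 14493 CPM in Upf3b-KO_Cere. In cerebellum all 4 granule cell markers fell, with sums of 3513 to 3535 CPM in Ctrl and 1832 to 1853 CPM in Upf3b-KO. All 3 Purkinje cell markers fell there too, with 6109 to 6241 CPM and 2265 to 2280.3 CPM. In frontal cortex all 6 astrocyte markers fell, with sums of 3823 to 3886 CPM in Ctrl and 3093 to 3141 CPM in Upf3b-KO. In cerebellum 3 astrocyte markers rose and 3 fell, and the sum was lower, 4992 to 5049 CPM in Upf3b-KO against 6022 to 6069 CPM in Ctrl. All 7 striatal neuron markers rose in frontal cortex, with sums of 145 to 157 CPM in Ctrl and 746 to 759 CPM in Upf3b-KO, whereas in cerebellum 4 rose and 1 fell and the sum was lower, 317 to 328 CPM in Upf3b-KO against 368 to 380.0 CPM in Ctrl. All 3 ependymal markers rose in both tissues.

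Of 5 microglial markers 1 rose and 1 fell in frontal cortex and 4 rose in cerebellum, of 5 endothelial markers 4 and 3 rose, and of 4 general neuronal markers 2 rose and 2 fell in frontal cortex and 1 rose and 3 fell in cerebellum. Of the 4 cortical excitatory neuron markers 3 fell in frontal cortex and 2 in cerebellum, and 0 rose. No marker was at 0 in all libraries of a group. In bulk tissue, fewer cells of a type and less RNA per cell cannot be told apart, and the part of these markers in the changes of Selenop, Selenow, Selenos, Selenom and the other members was not tested.

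**Figure D1:**
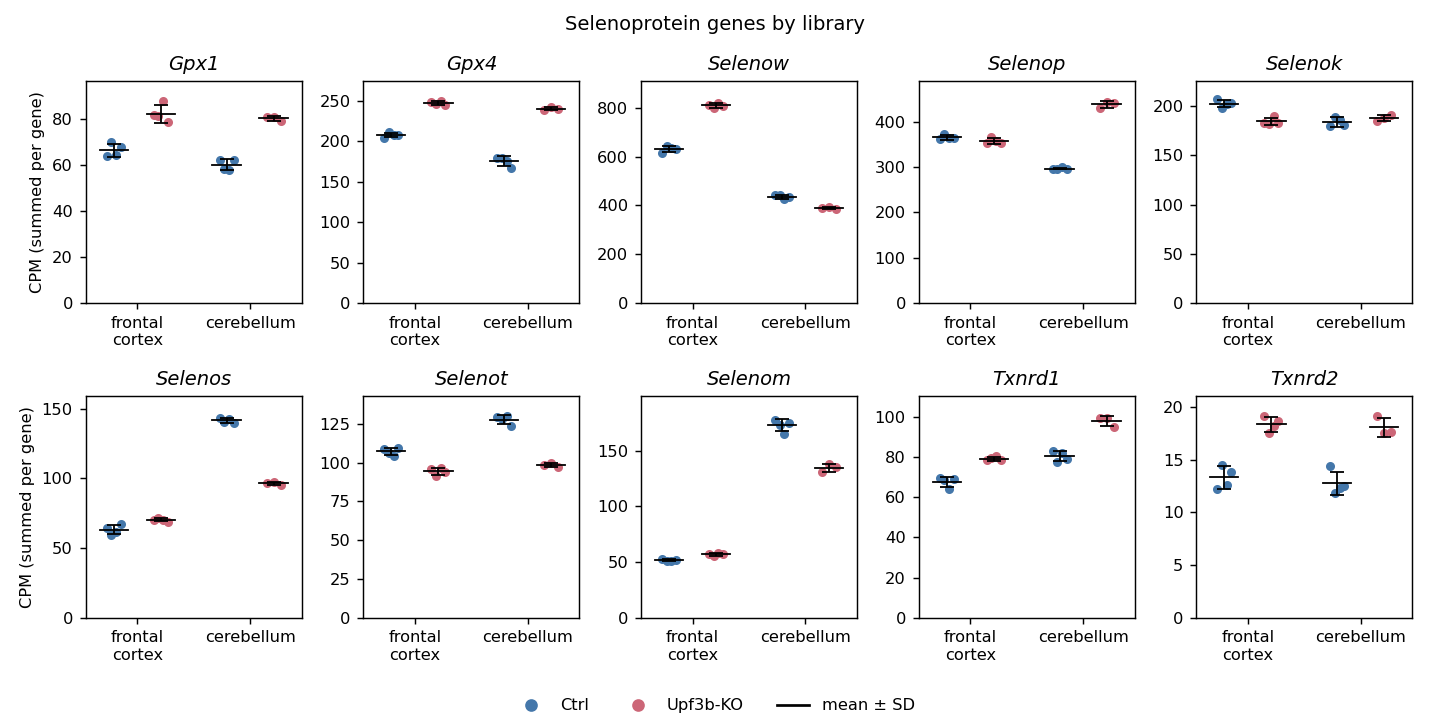
CPM of each selenoprotein gene in every deep library, Ctrl in blue and Upf3b-KO in red, with the group mean and SD in black and an axis that starts at 0. Selenop in cerebellum and Selenow in frontal cortex are higher in Upf3b-KO, and Selenos in cerebellum is lower, each without overlap between the groups.

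Both glutathione peroxidases among the members rose in both tissues. Gpx1, the abundant cytosolic enzyme that reduces hydrogen peroxide, held 63.9, 69.7, 64.1 and 67.7 CPM in Ctrl_FC and 81.6, 81.0, 87.7 and 78.4 CPM in Upf3b-KO_FC. The cerebellar values were 61.9, 58.2, 57.7 and 62.0 CPM in Ctrl and 80.7, 80.8 and 79.0 CPM in Upf3b-KO. Every Upf3b-KO library lay above every Ctrl library of its tissue, and the log2 fold change was 0.23 ± 0.04 in frontal cortex and 0.37 ± 0.03 in cerebellum (adjusted p = 8.9e-06 and 1.2e-08). Gpx4, the enzyme that reduces lipid hydroperoxides in membranes and guards against ferroptosis, held 205, 212, 208 and 208 CPM in Ctrl_FC and 249, 246, 250.4 and 246 CPM in Upf3b-KO_FC. In cerebellum it held 179.9, 179.7, 176 and 167 CPM in Ctrl and 238, 243 and 240.3 CPM in Upf3b-KO. Again the groups did not overlap, and the log2 fold change was 0.18 ± 0.02 in frontal cortex and 0.40 ± 0.02 in cerebellum (adjusted p = 1.8e-08 and 2.7e-11). Reads of Gpx4 can be shared with 3 near copies annotated elsewhere, namely the pseudogenes Gpx4-ps1 and Gpx4-ps2 and the transcript Gm63662. Together these held 26.3% to 26.6% of the Gpx4 level in the 4 groups, and with their counts added the log2 fold changes were 0.18 and 0.41.

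Both thioredoxin reductases among the members rose as well. Txnrd1, the cytosolic enzyme that keeps thioredoxin reduced, held 64.0 to 69.3 CPM in Ctrl_FC and 78.3 to 80.6 CPM in Upf3b-KO_FC, and 77.6 to 82.9 CPM in Ctrl_Cere and 95.1 to 99.4 CPM in Upf3b-KO_Cere. The log2 fold change was 0.15 ± 0.03 in frontal cortex and 0.24 ± 0.03 in cerebellum (adjusted p = 0.0002 and 1.7e-06). Txnrd2, its mitochondrial counterpart and the scarcest member, held 12.3, 14.5, 12.6 and 13.9 CPM in Ctrl_FC and 19.1, 17.5, 18.2 and 18.7 CPM in Upf3b-KO_FC. Its cerebellar values were 14.4, 11.9, 12.3 and 12.5 CPM in Ctrl and 19.1, 17.5 and 17.6 CPM in Upf3b-KO. The groups did not overlap in either tissue. Txnrd2 had the largest fold change of the members in frontal cortex, 0.39 ± 0.07 on the log2 scale (adjusted p = 3.4e-05), and rose by 0.45 ± 0.08 in cerebellum (adjusted p = 3.9e-05). Txnrd1 overlaps Eid3 and Gm38560, so part of its counts could come from these neighbours where strand was not used.

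Selenop and Selenow moved in opposite directions in the tissues. Selenop held 361, 372, 363 and 363 CPM in Ctrl_FC and 353, 367, 358 and 354 CPM in Upf3b-KO_FC, so that the groups overlapped. After scaling between libraries its log2 fold change there was -0.10 ± 0.02 (adjusted p = 1.3e-05). With library totals as the scale, tried after seeing the data, it did not pass (-0.03, adjusted p = 0.17). In cerebellum it held 295, 296, 299 and 296 CPM in Ctrl and 429, 444 and 440.5 CPM in Upf3b-KO, with no overlap. After scaling between libraries this was a rise of 42.8% (log2 fold change 0.51 ± 0.02, adjusted p = 3e-15). Ccdc152, which is antisense to Selenop, held less than 0.4% of the Selenop level in every group. Selenow, a small protein with a thioredoxin-like fold that is abundant in muscle and brain, held 615, 645, 634 and 632 CPM in Ctrl_FC and 812, 799.6, 821 and 808 CPM in Upf3b-KO_FC. It rose there by 0.28 ± 0.01 on the log2 scale (adjusted p = 2.1e-13). In cerebellum it held 441, 441, 424 and 434 CPM in Ctrl and 391, 392 and 384 CPM in Upf3b-KO. After scaling between libraries this was a fall of 13.6% (log2 fold change -0.21 ± 0.02, adjusted p = 2.7e-09). The groups of Selenow did not overlap in either tissue.

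Of the 4 ER members, Selenot and Selenok fell in frontal cortex and Selenot, Selenos and Selenom in cerebellum. Selenot, a redox protein of the ER membrane, held 109, 106, 104 and 109.7 CPM in Ctrl_FC and 96.0, 91.7, 96.5 and 94.0 CPM in Upf3b-KO_FC, and 129, 128, 130.1 and 124 CPM in Ctrl_Cere and 98.8, 99.8 and 97.3 CPM in Upf3b-KO_Cere. It was the only member lower in both tissues, without overlap, with log2 fold changes of -0.26 ± 0.03 and -0.42 ± 0.03 (adjusted p = 2.1e-08 and 4.1e-11). Selenos, a membrane protein of the pathway that exports misfolded proteins from the ER, held 64.1, 59.7, 61.2 and 67.3 CPM in Ctrl_FC and 70.2, 71.7, 70.1 and 68.9 CPM in Upf3b-KO_FC, a log2 fold change of 0.08 ± 0.03 that did not pass (adjusted p = 0.062). In cerebellum it held 143, 141, 143 and 140.0 CPM in Ctrl and 96.6, 97.2 and 95.4 CPM in Upf3b-KO. It fell by 34.2% there after scaling between libraries, the largest change of a member in cerebellum on the log2 scale (log2 fold change -0.60 ± 0.02, adjusted p = 4.7e-14).

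Selenom, which resides in the ER lumen, held 52.8, 51.0, 51.0 and 52.3 CPM in Ctrl_FC and 57.1, 55.4, 58.5 and 56.9 CPM in Upf3b-KO_FC, and its log2 fold change of 0.06 ± 0.03 did not pass (adjusted p = 0.1). In cerebellum it fell from 178, 174, 165 and 175 CPM to 131, 138 and 135 CPM, by 0.41 ± 0.03 on the log2 scale (adjusted p = 9.6e-11). Selenok, a small ER membrane protein, showed the reverse arrangement. It held 208, 198, 202 and 204 CPM in Ctrl_FC and 183, 182, 189.7 and 183 CPM in Upf3b-KO_FC. After scaling between libraries this was a fall of 13.6% (log2 fold change -0.21 ± 0.02, adjusted p = 1.1e-08). In cerebellum the groups overlapped, at 179.5, 189.6, 186 and 181 CPM in Ctrl and 185, 188 and 191 CPM in Upf3b-KO, and the log2 fold change was -0.02 ± 0.02 (adjusted p = 0.57). The gene Selenom overlaps Smtn by 32 bases.

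The fold changes above were computed after scaling with TMM factors, which take the trimmed mean of log ratios between libraries, and the calls of some small changes in frontal cortex depended on it and on other settings. Scaling by library totals instead, tried after seeing the data, moved the median of all genes up by 0.08 in frontal cortex and 0.05 in cerebellum on the log2 scale. It called 6662 genes higher and 3062 lower in frontal cortex, against 5099 and 4612 with TMM, and of the members 7 higher and 2 lower. Selenop then no longer passed in frontal cortex (log2 fold change -0.03, adjusted p = 0.17), whereas Selenos and Selenom did (0.16 and 0.14, adjusted p = 0.00064 and 0.00076). With TMM, Selenos also passed without Ctrl_FC library 4 (0.11, adjusted p = 0.01), under a stricter filter on low counts (adjusted p = 0.028) and with all 15 deep libraries in 1 fit (0.041), and Selenom passed under the stricter filter (0.048). In cerebellum the calls of the members stayed as they were, and the value of Selenok changed sign to 0.03 (adjusted p = 0.2). Selenok fell there when only protein-coding transcripts were summed (log2 fold change -0.12, adjusted p = 0.0047).

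**Figure D2:**
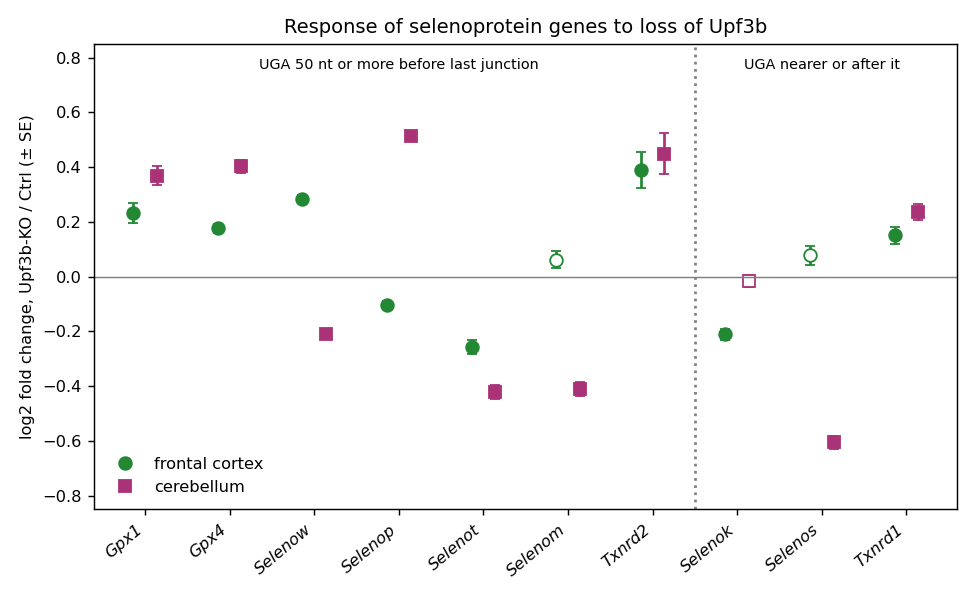
Log2 fold change of Upf3b-KO over Ctrl for each selenoprotein gene in frontal cortex (circles) and cerebellum (squares), with standard errors, filled where the adjusted p was under 0.05. The dotted line divides members by the place of the UGA. The points lie between -0.60 and 0.51, with Selenow and Selenop on opposite sides of 0 in the tissues.

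The response differed between the tissues for 8 of 10 members, tested as the interaction of tissue and genotype over the 15 deep libraries, while 48.0% of all tested genes passed that test. Relative to frontal cortex, the effect in cerebellum was more positive for Selenop, by 0.61 ± 0.02 on the log2 scale, for Gpx4 by 0.22 ± 0.03, for Selenok by 0.18 ± 0.03 and for Gpx1 by 0.13 ± 0.05 (adjusted p = 4.1e-17, 1.2e-06, 2.8e-05 and 0.043). It was more negative for Selenos, Selenow, Selenom and Selenot, with differences of -0.69 ± 0.04, -0.50 ± 0.02, -0.48 ± 0.04 and -0.18 ± 0.04 (adjusted p = 3.8e-13, 3.1e-16, 7.2e-11 and 0.00025). Those of Txnrd1 and Txnrd2 did not pass, at 0.07 ± 0.04 and 0.05 ± 0.10 (adjusted p = 0.16 and 0.73). The call of Gpx1 was lost under a stricter filter on low counts (adjusted p = 0.068), with library totals (0.084) and without single libraries, among them Upf3b-KO_FC library 4 (0.11).

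The members moved in both directions whether or not their UGA had a downstream exon junction. Of the 7 with the UGA 50 nt or more upstream of the last junction, 4 rose and 2 fell in frontal cortex, with a median log2 fold change of 0.18, and 4 rose and 3 fell in cerebellum, with a median of 0.37. Of the 3 with the UGA nearer or in the last exon, 1 rose and 1 fell in each tissue, with medians of 0.08 and -0.02. Over all tested genes, 28.0% were higher and 25.3% lower in frontal cortex and 33.1% and 31.3% in cerebellum. The class with the far upstream UGA held both the steepest rises (Selenop and Txnrd2) and a fall in both tissues (Selenot, the member with the longest distance of 470 nt). With 7 genes against 3 these values are a description, and the difference between the classes was not tested.

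**Figure D3:**
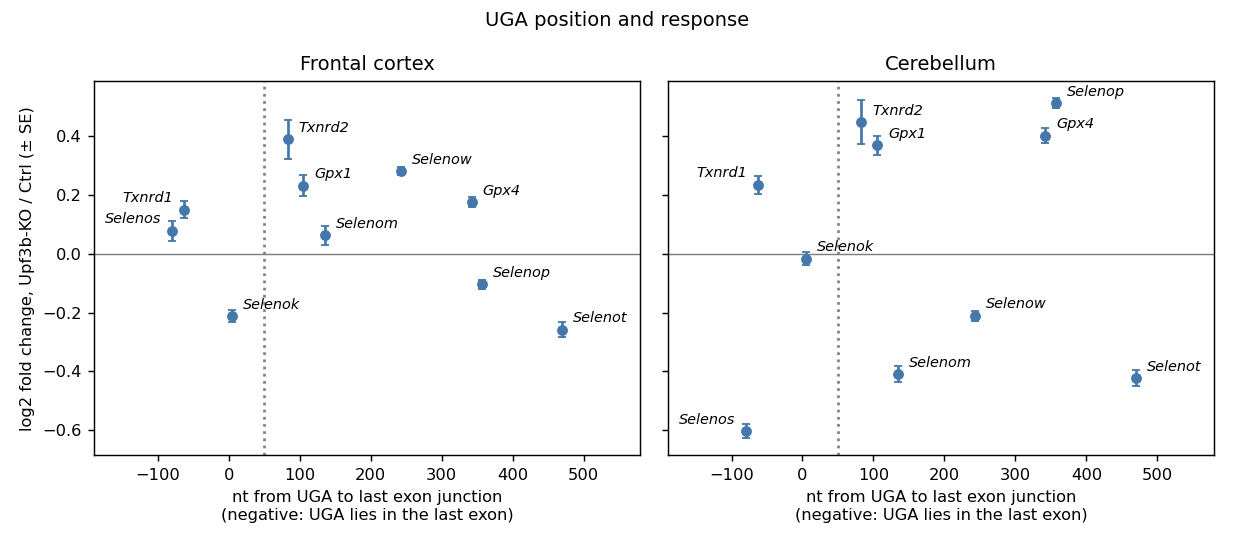
Log2 fold change of Upf3b-KO over Ctrl with its standard error against the distance in nt from the UGA codon to the last exon junction of the main transcript, for the 10 members in frontal cortex and cerebellum. The dotted line marks 50 nt. Members right of it lie both above and below 0, Selenot with 470 nt being lower in both tissues.

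At the level of transcripts, 24 of the 56 transcripts passed the low-count filter in frontal cortex and 29 in cerebellum, 27 passed in neither tissue and 6 were at 0 in every deep library. In frontal cortex 6 transcripts rose and 2 fell, where 8.67% and 7.68% of all tested transcripts did. In cerebellum 9 rose and 5 fell, against 12.3% and 10.3%. With library totals in place of TMM, 8 rose and 2 fell in frontal cortex, and over all tested transcripts there 4578 were higher and 2255 lower, against 3670 and 3250 with TMM. With Upf3b-KO_Cere library 1 included, 4 rose and 2 fell in cerebellum, and Selenow-201, Selenop-201, Selenot-201 and Selenos-201 were among those that no longer passed (adjusted p = 0.25, 0.32, 0.0501 and 0.075). Over all tested transcripts 2037 of 40281 were then higher and 1994 lower, against 5472 and 4556 of 44388 without that library. At the study's threshold 0 transcripts of the members were called in either tissue, against 3.22% and 4.76% of all tested transcripts. A single transcript carried most of the counts of most members: the share of the gene's counts was 100% for Selenow-201 and on average 99.6% to 99.9% for Selenot-201, 95.5% to 97.5% for Selenom-201 and 94.8% to 96.8% for Selenos-201. These transcripts moved as their genes did, with log2 fold changes in frontal cortex and cerebellum of 0.29 ± 0.01 and -0.16 ± 0.02 for Selenow-201 (adjusted p = 6.6e-06 and 0.00059) and of -0.25 ± 0.02 and -0.38 ± 0.02 for Selenot-201 (adjusted p = 0.00032 and 5.4e-05). Selenow-201 and its gene have the same counts, so their cerebellar values of -0.16 and -0.21 differ only through the filter, scaling and fit.

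Gpx1 offered a comparison within a gene, since its transcripts share most of their exons but not the reading frame across the UGA. Gpx1-201 carries the selenocysteine codon, whereas the annotated start codon of Gpx1-204 lies after it. Gpx1-201 held 46.2, 49.4, 45.3 and 45.5 CPM in Ctrl_FC and 60.2, 59.4, 64.6 and 56.7 CPM in Upf3b-KO_FC, and Gpx1-204 held 17.7, 20.3, 18.8 and 22.0 CPM and 21.3, 21.2, 22.5 and 21.5 CPM in the same groups. In frontal cortex only Gpx1-201 passed, with a log2 fold change of 0.31 ± 0.05 (adjusted p = 0.0028) against 0.07 ± 0.07 for Gpx1-204 (adjusted p = 0.64). In cerebellum both rose, Gpx1-201 from between 41.0 and 45.7 CPM in Ctrl to between 53.8 and 55.7 CPM (log2 fold change 0.34 ± 0.04, adjusted p = 0.0014), and Gpx1-204 from between 16.0 and 18.5 CPM to between 25.0 and 26.1 CPM (0.60 ± 0.07, adjusted p = 0.00086). With Upf3b-KO_Cere library 1 included, Gpx1-204 did not pass there (0.53, adjusted p = 0.2). Neither transcript passed the test for a change in its share of the gene.

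Selenok is the member with an abundant transcript of the annotated NMD type. Selenok-203 ends its reading frame 221 nt before its last exon junction, ahead of the UGA, and held on average 29.0% to 32.4% of the Selenok counts in the 4 groups. It held 64.7, 63.5, 57.4 and 55.6 CPM in Ctrl_FC and 56.0, 55.5, 65.1 and 56.7 CPM in Upf3b-KO_FC, which overlapped (log2 fold change -0.11 ± 0.07, adjusted p = 0.37). In cerebellum it held 55.4, 53.1, 52.4 and 52.6 CPM in Ctrl and 60.5, 62.0 and 60.6 CPM in Upf3b-KO, and it rose by 14.2% (log2 fold change 0.19 ± 0.03, adjusted p = 0.0039). With Upf3b-KO_Cere library 1 included the value was 0.14 and did not pass (adjusted p = 0.72). Selenok-201, the transcript with the selenocysteine codon, fell by 0.26 ± 0.03 on the log2 scale in frontal cortex (adjusted p = 0.0011) and had a log2 fold change of -0.07 ± 0.04 in cerebellum (adjusted p = 0.23). The other transcripts of the NMD type, Selenos-202 and Txnrd2-202, had means of 0.256 and 0.0731 CPM over the deep libraries and were not tested.

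Of the 56 transcripts, 8 had a stop codon with a dEJ, and most of these belong to Txnrd2. In its main transcript Txnrd2-203 both the UGA and the normal stop codon, 77 nt before the last junction, are upstream enough to count. Txnrd2-203 held 9.75, 11.1, 8.25 and 12.1 CPM in Ctrl_FC and 17.1, 15.2, 16.2 and 16.5 CPM in Upf3b-KO_FC, and 13.1, 10.1, 9.89 and 10.8 CPM in Ctrl_Cere and 15.5, 14.9 and 16.0 CPM in Upf3b-KO_Cere. The groups did not overlap, and it rose by 0.60 ± 0.12 on the log2 scale in frontal cortex and by 0.49 ± 0.12 in cerebellum (adjusted p = 0.011 and 0.022). The cerebellar call was lost without Ctrl_Cere library 2, 3 or 4 or any Upf3b-KO library, with adjusted p from 0.052 to 0.081. With Upf3b-KO_Cere library 1 included it was lost as well (log2 fold change 0.43, adjusted p = 0.37). Among the tested transcripts with a dEJ the remaining Txnrd2-216 reached at most 0.943 CPM and did not pass in cerebellum (adjusted p = 0.44).

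**Figure D4:**
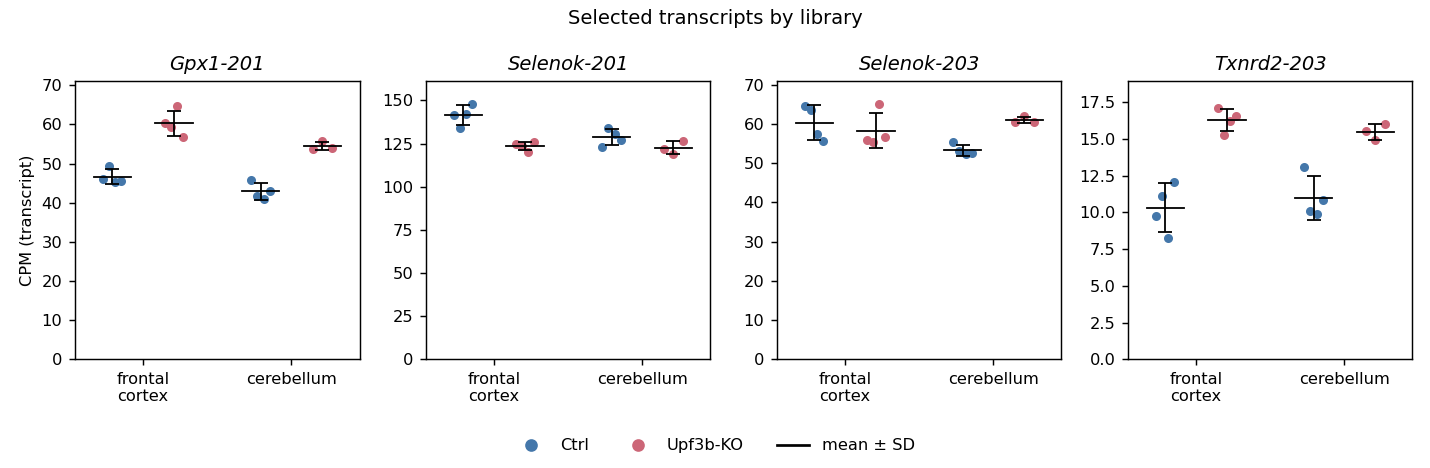
CPM of Gpx1-201, Selenok-201, Selenok-203 and Txnrd2-203 in every deep library, Ctrl in blue and Upf3b-KO in red, with the group mean and SD in black and an axis that starts at 0. Gpx1-201 and Txnrd2-203 are higher in Upf3b-KO in both tissues, and Selenok-203 is higher in cerebellum.

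Gpx4-201, which has the longest coding sequence of the Gpx4 transcripts (759 nt), had the largest fold change among the transcripts that passed. It held 1.06, 0.317, 1.28 and 0.908 CPM in Ctrl_FC and 2.63, 3.75, 3.76 and 4.75 CPM in Upf3b-KO_FC, a log2 fold change of 2.01 ± 0.43 (adjusted p = 0.015), and it rose by 1.20 ± 0.34 in cerebellum (adjusted p = 0.042). The cerebellar call was lost with no filter on low counts (adjusted p = 0.16), with all 15 deep libraries in 1 fit (0.056), with Upf3b-KO_Cere library 1 included (0.1) and without any deep cerebellar library other than Ctrl_Cere library 2 (0.06 to 0.13). Even so it made up at most 1.94% of the Gpx4 counts of a library, and Gpx4-202 and Gpx4-207, with the same UGA and the same 342 nt to the last junction, carried the gene. Selenom-203, a transcript without a defined coding sequence, fell in cerebellum, with 4.18 to 4.77 CPM in Ctrl and 1.42 to 2.42 CPM in Upf3b-KO (log2 fold change -1.11 ± 0.24, adjusted p = 0.014). That call was lost when all 15 deep libraries were fitted together (adjusted p = 0.37). With the replicate number as a block, Selenom-203 did not pass there (adjusted p = 0.11). Gpx4-201 then did not pass in frontal cortex (0.064) or cerebellum (0.18). Transcript usage, the share of a gene's counts taken by each transcript, was tested with diffSpliceDGE of edgeR for 22 transcripts in frontal cortex and 28 in cerebellum, and 0 passed in either tissue. Over all tested transcripts 0.86% passed in frontal cortex and 1.25% in cerebellum. At an unadjusted p under 0.05 there were 2 with a higher and 1 with a lower share in frontal cortex and 1 of each in cerebellum. Chance alone gives about 1 in 20 at that threshold, and the share of all tested transcripts at it is not given here.

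The 14 other selenoprotein genes and the pathway lists were counted against the same background, 28.0% higher and 25.3% lower in frontal cortex and 33.1% and 31.3% in cerebellum. Of the other selenoproteins 12 were tested in frontal cortex, of which 5 rose and 5 fell, with a median log2 fold change of 0.05. In cerebellum 11 were tested, of which 5 rose and 2 fell, with a median of 0.22. Selenov, which is best known from testis, rose by 2.72 ± 0.20 on the log2 scale in frontal cortex from a level of 0.450 to 0.528 CPM, and by 1.42 ± 0.45 in cerebellum. Selenoh, a nucleolar selenoprotein, rose in both tissues, by 0.93 ± 0.07 and 0.54 ± 0.07. Gpx3, the secreted glutathione peroxidase, fell by 0.66 ± 0.10 in frontal cortex and rose by 2.23 ± 0.07 in cerebellum, with 6.83 to 8.14 CPM in Ctrl and 33.9 to 39.3 CPM in Upf3b-KO. Dio3, the deiodinase that inactivates thyroid hormone, had the lowest value, -2.08 ± 0.20 in frontal cortex, with 3.53 ± 0.706 CPM in Ctrl and 0.875 ± 0.215 CPM in Upf3b-KO (SD, n = 4 each), and was not tested in cerebellum. Dio2, the deiodinase that activates it, fell by 0.07 ± 0.03 in frontal cortex and rose by 0.41 ± 0.04 in cerebellum. Selenoo, a mitochondrial selenoprotein, fell in both tissues, with log2 fold changes of -0.24 ± 0.05 and -0.19 ± 0.04. Txnrd3 rose by 0.68 ± 0.08 in frontal cortex and did not pass in cerebellum (0.22 ± 0.10, adjusted p = 0.056). Over all selenoproteins, members included, the UGA lay 50 nt or more upstream of the last junction in 15 genes, of which 13 were tested. In frontal cortex 7 of these rose and 4 fell, and in cerebellum 8 rose and 3 fell, with medians of 0.18 and 0.40. Among the 9 genes with the UGA elsewhere, 3 rose and 4 fell in frontal cortex, and of the 8 tested in cerebellum 2 rose and 3 fell, with medians of -0.03 and 0.00. These lists were put together with earlier results of the same libraries known, so the counts are a description.

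**Figure D5:**
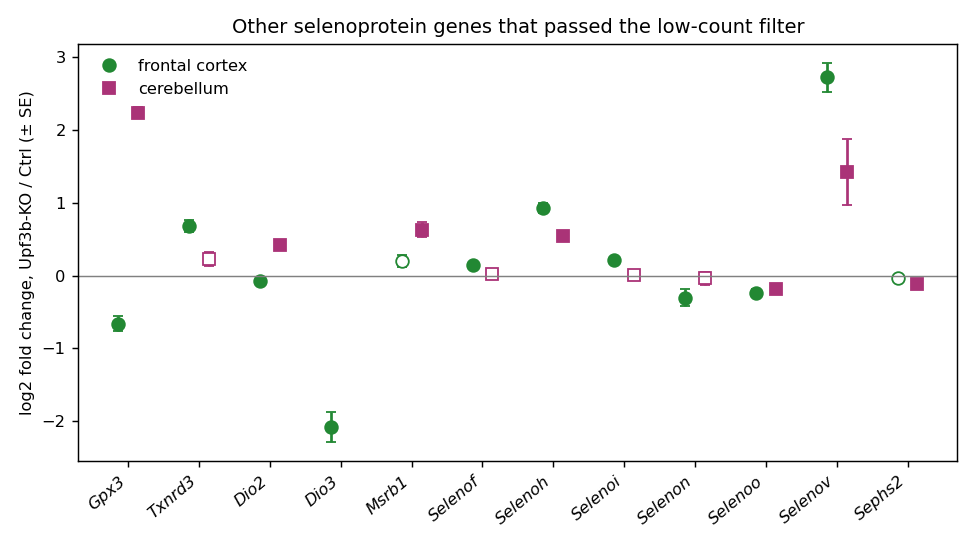
Log2 fold change of Upf3b-KO over Ctrl with its standard error for the selenoprotein genes outside the 10 members, in frontal cortex (circles) and cerebellum (squares), filled where the adjusted p was under 0.05. Selenov in frontal cortex and Gpx3 in cerebellum rise furthest, and Dio3, tested in frontal cortex alone, is the lowest.

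Genes that make and use selenocysteine moved in both directions. Of 13 genes for the insertion machinery and selenium uptake, 6 rose and 2 fell in frontal cortex, with a median log2 fold change of 0.14, and of the 12 tested in cerebellum 3 rose and 5 fell, with a median of -0.02. Secisbp2l, a paralog of the SECIS-binding protein, rose by 0.15 ± 0.02 in frontal cortex and 0.09 ± 0.02 in cerebellum. Sepsecs, which acts in the synthesis of selenocysteine on its tRNA, and Sephs1, a paralog of the selenophosphate synthetase gene Sephs2 that is not itself known to make selenophosphate, rose in frontal cortex by 0.23 ± 0.06 and 0.34 ± 0.04 and fell in cerebellum, with log2 fold changes of -0.15 ± 0.05 and -0.09 ± 0.03. Ncl, the gene of nucleolin, fell in both tissues (-0.29 ± 0.02 and -0.38 ± 0.02), and the largest rises were those of Lrp2 in frontal cortex (1.13 ± 0.30) and Pstk in cerebellum (0.47 ± 0.06). Among 17 antioxidant enzymes without selenocysteine, 3 rose and 8 fell in frontal cortex and 11 rose and 3 fell in cerebellum, with medians of -0.09 and 0.17. Of these, 6 fell in frontal cortex and rose in cerebellum: Prdx1, Prdx2, Prdx6, Txn1, Cat and Sod1, with Prdx6 at -0.31 ± 0.01 and 0.24 ± 0.02 and Sod1 at -0.20 ± 0.03 and 0.24 ± 0.04. Gpx8 and Msra rose in both tissues and Txn2 and Sod2 fell in both, while Msrb2 rose furthest and Gsr fell furthest in cerebellum (0.60 ± 0.07 and -0.29 ± 0.03). Among 8 targets of the stress-responsive factor Nrf2, which include genes for glutathione synthesis, 1 rose and 4 fell in frontal cortex and 3 rose and 2 fell in cerebellum, with medians of -0.23 and 0.07. Srxn1 rose in both tissues, Slc7a11 and Gsta4 fell in frontal cortex and rose in cerebellum, and the lowest values were those of Gclm in frontal cortex (-0.50 ± 0.04) and Nqo1 in cerebellum (-0.33 ± 0.07).

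Across the 15 deep libraries, the genes most like Gpx1 in log2(CPM + 0.5) were Rasgrp2 and Map2k2 (Pearson r = 0.971 each) and Sostdc1 (0.970), among 16754 genes tested in both tissues. Those most like Selenow were R3hdm1, Fmnl1 and Camta2 (r = 0.997, 0.995 and 0.991). The libraries fall into 4 tight groups, so these values mostly describe likeness over 4 group levels, and they carry no p-value.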

How the data were processed

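The authors deposited expected counts, estimated for each Ensembl transcript with RSEM after alignment to GRCm39 with STAR 2.5.2b, per the labels and the study's methods. These carry no scaling for depth or length. Libraries were made from rRNA-depleted total RNA with a SMART-Seq kit, and whether counting used the strand of reads is not given in the sources used here, so overlapping and antisense genes are uncertain. RSEM divides reads among similar transcripts by a model, so transcript values are less certain than gene sums.

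Of 142435 transcripts, 1333 had no identifier in GENCODE vM39, and the matched ones held 99.3% to 99.4% of the counts. UGA positions came from that annotation, which is not the authors' release, and sequence from its GRCm39 genome. Counts were summed per gene, rounded, filtered with filterByExpr (minimum count 10, minimum total 15), scaled with TMM factors and fitted in R 4.3.3 with edgeR 4.0.16 (quasi-likelihood F test, Benjamini-Hochberg adjustment over all features). A feature passed at an adjusted p under 0.05. The SE is the absolute log2 fold change divided by the square root of F. Near copies were found with blastn 2.17.0 at 90% identity or more over at least 50% of their length. EBSeq and IsoformSwitchAnalyzeR, used by the authors, were replaced by edgeR. The scripts were tested on simulated data.

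All 10 members were named, with their most abundant transcript, those of the NMD type or with a dEJ that were tested, and those that passed. Of the other selenoprotein and pathway lists, genes were named that passed in both tissues or had the largest change in each direction, and Txnrd3 was added after its values were seen. Members and lists were chosen with earlier results of these data known. Alternatives were DESeq2 1.42.0, other scaling and filters, counts not rounded, the replicate number as a block, the study's threshold, all deep libraries in 1 fit, Upf3b-KO_Cere library 1 included, coding transcripts alone, near copies added, and each library left out in turn. Scaling by library totals was added after seeing the data. Same-numbered libraries did not deviate together (correlations of -0.05 to 0.07, none over 0.1), so the numbers were not taken as pairs.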

Additional observations from a re-analysis of the deposited data

Results flagged for a closer look

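For 8 members the effect of Upf3b loss differed between the tissues in the interaction test of edgeR, as cerebellum minus frontal cortex on the log2 scale. The differences were 0.61 for Selenop, 0.22 for Gpx4, 0.18 for Selenok and 0.13 for Gpx1, and -0.69 for Selenos, -0.50 for Selenow, -0.48 for Selenom and -0.18 for Selenot. Over all tested genes 48.0% passed that test, and the call of Gpx1 was lost under 11 alternatives.

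Selenok in Upf3b-KO_FC library 3, at 189.7 CPM, stood apart from the other libraries of its group, the only such case in 30 groups of 4 libraries examined, where chance gives about 1 in 20.

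In the shallow Upf3b-KO_Cere library 1, which was left out of the comparisons in the report except where its inclusion is named, Gpx4 stood at 470.0 CPM, above the highest Ctrl_Cere library at 179.9 CPM. That value rests on 31 counts.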

How the results depend on the processing

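The counts of members that passed stayed within 1.5 times under most alternatives. At the study's threshold 0 members passed in either tissue, for genes or for transcripts, and 0 in the interaction, and 2 (Selenos and Selenom) passed between the tissues of Ctrl mice. With Upf3b-KO_Cere library 1 included, 6 transcripts passed in cerebellum in place of 14, and over all tested transcripts 4031 passed in place of 10028. When each library was left out in turn, 8 to 9 genes passed in frontal cortex, 9 in every case in cerebellum and between Ctrl tissues, 7 to 9 in the interaction, and 8 to 10 and 12 to 13 transcripts in frontal cortex and cerebellum. Of all 18501 to 18634 genes tested in frontal cortex 9220 to 9475 passed, and of 17519 to 18219 in cerebellum 10790 to 11182. Between Ctrl tissues 13174 to 13370 of 17808 to 17945 genes passed, and in the interaction 9070 to 9333 of 19641 to 20447. Of all 44388 to 44928 transcripts tested in frontal cortex 5483 to 5897 passed, and of 42599 to 47837 in cerebellum 7755 to 8966. Upf3b had log2 fold changes of -5.06 to -4.55 in cortex and of -5.23 to -4.85 in cerebellum. Transcript usage gave 0 to 1 calls in each tissue, 1 transcript of Txnrd2 in each case, without Ctrl_FC library 4 (adjusted p = 0.042) and without Ctrl_Cere library 3 (0.0075).

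With library totals, added after seeing the data, the log2 fold change of Selenok in cerebellum turned to 0.034 and that of Selenop-201 in frontal cortex to 0.044. When libraries were left out in turn, Selenop-201 ranged there from -0.069 to 0.027 (above 0 without Upf3b-KO_FC library 4 or Ctrl_FC library 1) and Selenom-203 from -0.41 to 0.28 (above 0 without Upf3b-KO_FC library 3 or Ctrl_FC library 1). None of these passed in either setting, and the cause was not tested. The interaction of Gpx1 was lost without Upf3b-KO_FC library 1, 2 or 4, Ctrl_FC library 2 or 4, or Ctrl_Cere library 2 or 3 (adjusted p of 0.073 to 0.11), and that of Txnrd1 passed without Ctrl_FC library 3 (0.047) or Upf3b-KO_Cere library 4 (0.045).

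Same-numbered libraries shared only a number. With the replicate number as a block, 8 and 9 member genes passed in frontal cortex and cerebellum, 7 and 12 transcripts, 7 genes in the interaction and 9 between Ctrl tissues. Over all tested genes 9529 of 18218 passed with the block in frontal cortex and 10954 of 17785 in cerebellum. In the interaction 8813 of 19831 genes passed with it, and 13163 of 17521 between Ctrl tissues. The named calls lost with the block were those of Gpx4-201 in frontal cortex (adjusted p = 0.064) and cerebellum (0.18), Selenom-203 in cerebellum (0.11) and the interaction of Gpx1 (0.066). Over all tested transcripts the block reduced the calls to 4213 from 6920 in cortex and to 5165 from 10028 in cerebellum. A library correlated best with its own number in 1 of 4 cases between the frontal cortex groups, 2 of 3 between the cerebellum groups, and 0 of 4 and 0 of 3 between the tissues of Ctrl and of Upf3b-KO mice. Depth limits the scarce transcripts, since 3 counts correspond to 0.0851 to 0.108 CPM.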
